A study of Mus musculus with 2 samples.

Results

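The proteasome subunits and the ubiquitin-conjugating enzymes were examined in a mouse comparison of liver metastases with primary tumours of Colon26, a colon carcinoma line. Members are all genes whose symbol has the form Psma to Psmg plus a number or Ube2 plus a letter, and 73 of 13506 named genes with a value on both arrays met this rule. They comprise 42 proteasome genes, 28 ubiquitin-conjugating (E2) enzymes and 3 genes that share only the name (Psmc3ip, Psme3ip1 and Ube2cbp). The probe annotation listed 73 such symbols in all, so every listed member had a value on both arrays. Psma5, Psmb3, Psmb11, Psme2, Psme3, Psmg4, Ube2d2a, Ube2d3, Ube2m, Ube2u and Ube2v2 are among the genes of these families not analysed here.

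Colon26 cells were cultured and then injected beneath the rectal mucosa of Balb/c mice, the strain in which the line arose. RNA of the liver metastases carried Cy3 and that of the primary tumours Cy5, and the labels give no further genotype, treatment, age or time. Each of 2 two-colour arrays carried 1 tumour and 1 metastasis, grown and harvested apart from those on the other array. All samples come from a single cell line, and the RNA of a tumour can include that of host cells, so fewer cells of a type and less RNA per cell cannot be told apart. The value of a gene is the log ratio between the 2 channels, taken as log2. The sources used here do not say which channel is the numerator, so values are called positive or negative and no side is assigned to metastasis or tumour. The dyes lay the same way round on both arrays, so dye and tissue cannot be told apart.

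The proteasome is the cell's main machine for breaking down proteins tagged with ubiquitin. Its barrel-shaped core holds rings of alpha subunits, which gate the entrance, and rings of beta subunits, some of which cut the substrate. A regulatory particle of ATPases and non-ATPase subunits binds the ubiquitin chain, removes it and feeds the unfolded protein into the core. Interferon gamma induces alternative catalytic subunits, which replace the constitutive ones in an immunoproteasome that favours peptides for MHC class I. E2 enzymes receive ubiquitin or a related modifier from an E1 enzyme and pass it, with an E3 ligase, to the substrate.

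The promoters of the immunoproteasome genes Psmb9, Psmb8 and Psme1 and of Psmb6 and Psmb5, the constitutive counterparts of the first pair, are shown because their mean log ratios lay on opposite sides, although Psmb8 was at -0.01 on array 1. Sequences run 5′ to 3′ over 250 bases before and 50 bases after the annotated start, from RefSeq on GRCm38.p6. Capitals mark matches on either strand to TTCNNNGAA (the interferon gamma-activated site, its own reverse complement), GAAANNGAA (from the core of the interferon-stimulated response element) or TGACNNNGC (the core of the antioxidant response element, bound by Nfe2l1 and Nfe2l2). The Psmb9 window is at chr17:34187281-34187580, minus strand, and the Psmb6 window at chr11:70525107-70525406, plus strand. The Psmb8 window is at chr17:34197945-34198244, plus strand, and the Psmb5 window at chr14:54617946-54618245, minus strand. The Psme1 window is at chr14:55578244-55578543, plus strand.
Psmb9: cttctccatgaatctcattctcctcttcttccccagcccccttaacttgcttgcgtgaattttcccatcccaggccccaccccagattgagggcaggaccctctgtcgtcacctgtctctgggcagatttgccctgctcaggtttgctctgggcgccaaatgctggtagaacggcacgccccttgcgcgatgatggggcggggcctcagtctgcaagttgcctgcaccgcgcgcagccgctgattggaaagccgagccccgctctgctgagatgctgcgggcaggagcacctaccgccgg
Psmb6: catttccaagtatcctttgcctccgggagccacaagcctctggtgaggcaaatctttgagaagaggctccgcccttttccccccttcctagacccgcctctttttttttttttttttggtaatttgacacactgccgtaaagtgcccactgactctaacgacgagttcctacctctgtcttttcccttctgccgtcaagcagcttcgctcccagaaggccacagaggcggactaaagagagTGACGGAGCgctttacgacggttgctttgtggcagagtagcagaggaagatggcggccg
Psmb8: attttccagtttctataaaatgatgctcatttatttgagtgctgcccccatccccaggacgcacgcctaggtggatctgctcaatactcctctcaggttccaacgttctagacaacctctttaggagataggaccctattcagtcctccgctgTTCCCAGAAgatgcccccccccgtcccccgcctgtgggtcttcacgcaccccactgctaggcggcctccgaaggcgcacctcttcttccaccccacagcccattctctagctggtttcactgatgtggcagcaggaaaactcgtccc
Psmb5: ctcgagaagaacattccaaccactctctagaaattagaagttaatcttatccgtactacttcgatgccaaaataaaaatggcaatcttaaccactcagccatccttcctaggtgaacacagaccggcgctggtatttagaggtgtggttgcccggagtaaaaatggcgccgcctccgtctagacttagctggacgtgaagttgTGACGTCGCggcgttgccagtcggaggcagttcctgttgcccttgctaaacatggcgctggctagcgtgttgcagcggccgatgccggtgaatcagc
Psme1: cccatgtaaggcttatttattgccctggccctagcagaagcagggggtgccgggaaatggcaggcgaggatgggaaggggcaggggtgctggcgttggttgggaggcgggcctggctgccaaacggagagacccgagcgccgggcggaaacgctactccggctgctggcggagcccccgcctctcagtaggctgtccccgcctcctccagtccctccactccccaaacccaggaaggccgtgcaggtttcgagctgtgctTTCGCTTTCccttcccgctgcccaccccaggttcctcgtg
The Psmb8 window holds TTCCCAGAA 97 bases before the start, and the Psme1 window holds TTCGCTTTC 10 bases after it. The interferon gamma-activated site was matched in 1 of 4 immunoproteasome promoters and in 8.3% of all 32851 promoters of this length, and the response element core in 1 of 4 and in 8.56%. The constitutive Psmb5 and Psmb6 windows hold TGACGTCGC 47 bases and TGACGGAGC 9 bases before the start. That core was matched in 4 of 25 promoters of core and regulatory particle genes (16%) and in 12.4% of all promoters. No capitals stand in the Psmb9 window, which means only that these letters do not occur there. The matches did not overlap one another. Promoters were found for 61 of the 73 members. The start of Psmb9 lies 226 bases from that of Tap1, a peptide transporter gene on the opposite strand.

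Across all 73 members the log ratios lay close to 0. Limma called 0 of 73 at an adjusted p of 0.05, against 391 of 13506 genes (2.9%). Before adjustment 12 members (16.4%) had p under 0.05, 6 positive and 6 negative, against 27.5% of all genes. No member was at least 1 log2 unit from 0 on both arrays, which 2.27% of genes were. The mean lay within 0.5 log2 units of 0 for 64 of 73 members (87.7%) and for 78.2% of genes. The 95% interval of limma lay within 1 log2 unit of 0 for 67 members and for 80.7% of genes, so for those members a ratio of more than 2-fold on either side is outside the interval if the base is 2.

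The median of the members was -0.07, with -0.04 on array 1 and -0.11 on array 2, and that of all genes was -0.02. Both arrays gave a positive value for 23 members and a negative one for 34, and their signs differed for 16. Over all genes 33.9% were positive and 38.2% negative on both. Across members, which share the same 2 arrays and are not independent, Pearson's r between the arrays was 0.59 and Spearman's rho 0.69 (n = 73 genes). The same coefficients over all genes were 0.61 and 0.58. Array 2 was lower than array 1 in 50 of 73 members, against 51.9% of all genes.

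**Figure D1:**
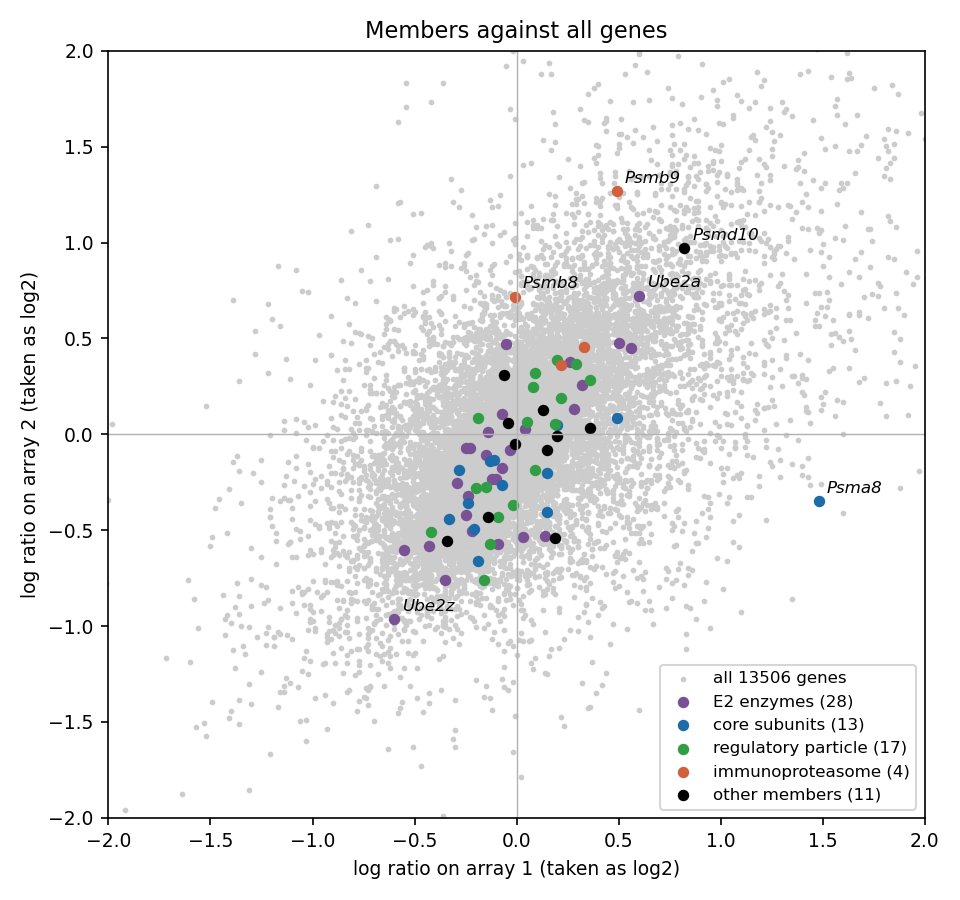
Log ratio on array 1 (x axis) against array 2 (y axis), both taken as log2, for all 13506 genes (grey) and the members (coloured by class), 1 point per gene. The axes end at 2 log2 units, which leaves 136 genes outside. The members cluster near 0, as most genes do, with Psmd10, Psmb9 and Ube2a on the positive side and Ube2z on the negative side. Psma8 is far apart between arrays.

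Constitutive core subunits had a median of -0.13 over 13 genes, with -0.11 on array 1 and -0.26 on array 2. Both arrays were negative for 8 of them and positive for 2, and for 3 the signs differed. Over all genes 38.2% were negative and 33.9% positive on both. None was called by limma (0 of 13, and 0 at p under 0.05 before adjustment), against 2.9% and 27.5% of all genes. The beta subunits formed the more uniform part, with 5 of 6 negative on both arrays and a median of -0.22.

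Psmb5, which carries the chymotrypsin-like activity and is the main target of bortezomib, had -0.21 on array 1 and -0.49 on array 2, a mean of -0.35 ± 0.20 (SD, n = 2; limma adjusted p = 0.231). Psmb6, the caspase-like subunit, had -0.11 and -0.13, a mean of -0.12 ± 0.02. Psmb7, the trypsin-like subunit, had 0.20 and 0.05, a mean of 0.12 ± 0.11. Of the catalytic subunits, Psmb7 alone was thus positive, on both arrays. The non-catalytic Psmb1 had -0.33 and -0.44 (mean -0.38 ± 0.08), which was the lowest mean among the beta subunits, with a limma adjusted p of 0.184. Psmb2 had -0.24 and -0.36, and Psmb4 had -0.13 and -0.14. Psmb4 and Psmb6 differed least between the arrays.

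The alpha subunits, which form the outer rings and the gate, showed no common side. Psma3 had -0.19 on array 1 and -0.66 on array 2 (mean -0.43 ± 0.33, SD, n = 2), and Psma6 had -0.28 and -0.19 (mean -0.23 ± 0.07). Psma7 had -0.07 and -0.26, and was likewise negative on both. Psma4 had 0.49 and 0.09 and was the 1 alpha subunit positive on both arrays. Psma1 had 0.15 and -0.20, and Psma2 had 0.15 and -0.40, so their sign differed between arrays. Psma8, a form of the testis that replaces Psma7 there, had 1.48 and -0.35, and its mean of 0.57 ± 1.29 rests on array 1. Without Psma8 the median of the core was -0.15.

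The regulatory particle as a whole showed no common side. Its 17 measured subunits with Psm names had a median of -0.05, although the medians of array 1 and array 2 were both 0.05. Of them, 8 were positive and 7 negative on both arrays. The ATPases, the ring that unfolds the substrate, had a median of 0.18, with 4 of 6 positive on both arrays. The non-ATPase subunits had a median of -0.19, with 6 of 11 negative on both. None of the 17 was called by limma (0), and 1 had p under 0.05 before adjustment, against 2.9% and 27.5% of all genes.

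Among the ATPases, Psmc3 had 0.20 on array 1 and 0.39 on array 2 (mean 0.29 ± 0.13, SD, n = 2), and Psmc2 had 0.09 and 0.32 (mean 0.21 ± 0.16). Psmc5 had 0.22 and 0.19, and Psmc6 had 0.08 and 0.25. These 4 were positive on both arrays with limma adjusted p from 0.278 for Psmc3 to 0.518 for Psmc6. Psmc1 was negative on both, at -0.20 and -0.28, and Psmc4 was mixed, at 0.09 and -0.19.

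The 3 measured non-ATPase subunits of the base with Psmd names were all negative on both arrays. The base is the part next to the core. Psmd2, the scaffold that docks ubiquitin shuttles and Usp14, had -0.42 on array 1 and -0.51 on array 2 (mean -0.46 ± 0.06, SD, n = 2) and a limma adjusted p of 0.142. It was the 1 subunit of the regulatory particle with p under 0.05 before adjustment. Psmd1, the other large scaffold, had -0.16 and -0.76 (mean -0.46 ± 0.43). Psmd4, a ubiquitin receptor, had -0.09 and -0.43 (mean -0.26 ± 0.24). Array 2 was the farther from 0 for each of the 3.

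The lid, which holds the deubiquitinase that removes the chain, had a median of 0.00, with 4 subunits positive and 3 negative on each array and 1 whose sign differed. Psmd14, that deubiquitinase, had -0.02 on array 1 and -0.37 on array 2 (mean -0.19 ± 0.25, SD, n = 2). Its catalytically inactive partner Psmd7 had 0.36 and 0.28 (mean 0.32 ± 0.06). The means of these dimer partners therefore lay on opposite sides, although the mean of Psmd14 rests on array 2. Psmd8 had 0.29 and 0.36 (mean 0.33 ± 0.05), and Psmd11 had -0.13 and -0.57 (mean -0.35 ± 0.31). Psmd3 had -0.15 and -0.28, Psmd12 0.19 and 0.05, Psmd6 0.05 and 0.06, and Psmd13 -0.19 and 0.08. For all 17 regulatory particle subunits the 95% limma interval lay within 1 log2 unit of 0.

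**Figure D2:**
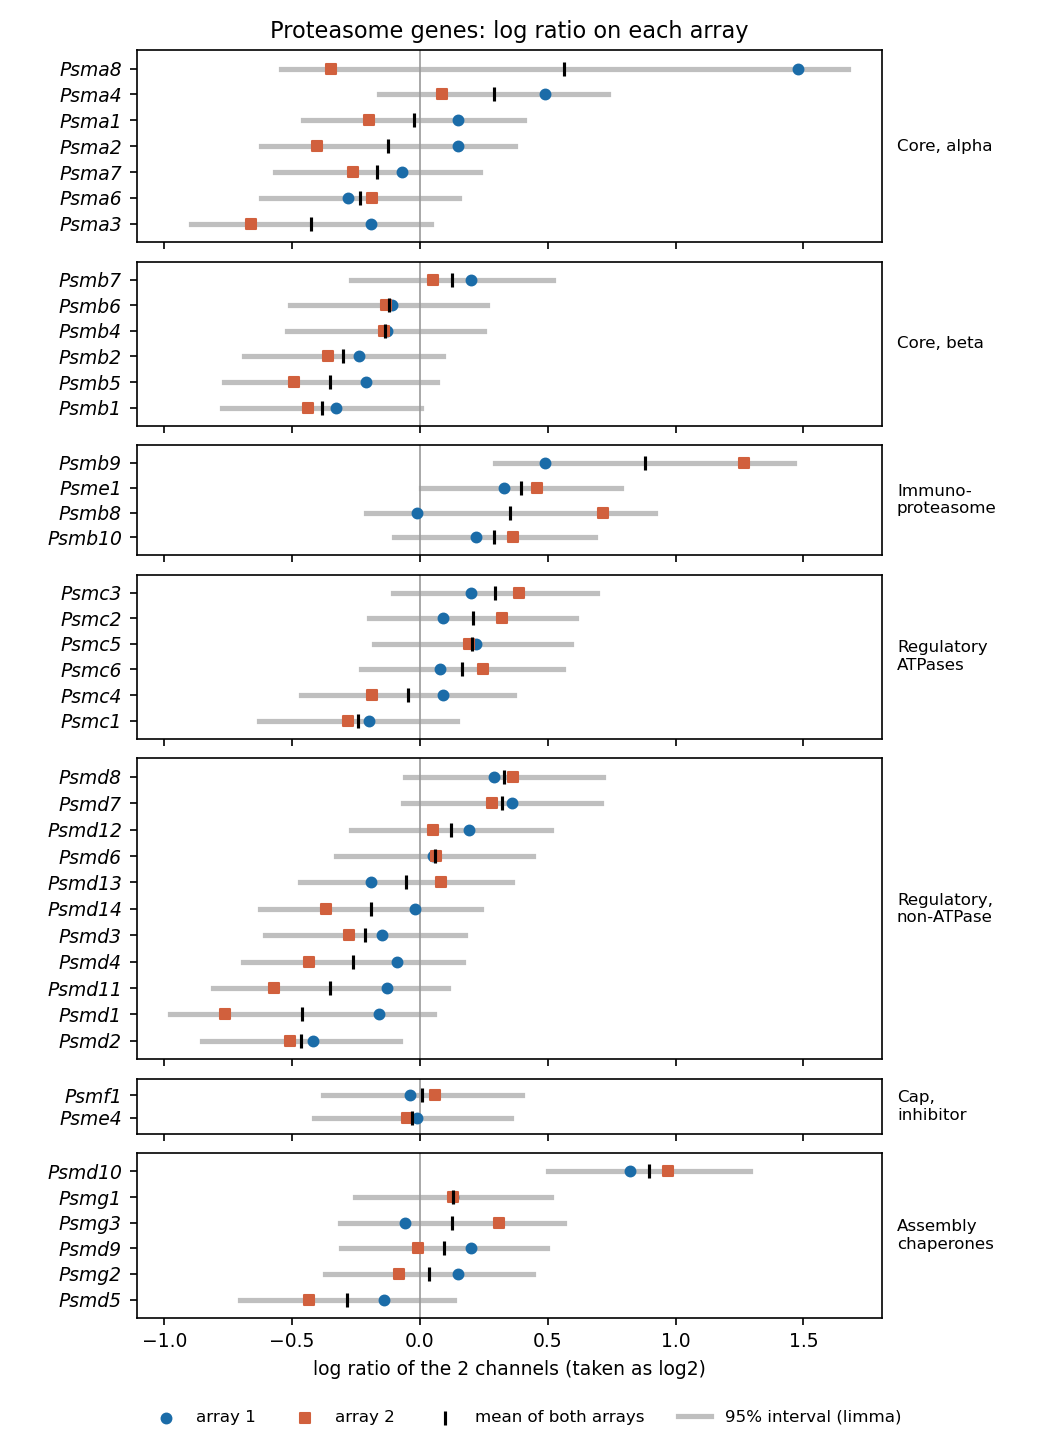
Log ratio (taken as log2, x axis) of each proteasome gene on array 1 (circles) and array 2 (squares), with the mean (black tick) and the 95% limma interval (grey bar), grouped by class. Of the 6 beta subunits 5 lie left of 0 on both arrays, the 4 immunoproteasome genes have positive means, and Psmd10 stands apart from the other assembly chaperones.

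The 4 measured immunoproteasome genes had the highest median of any class, 0.37, with 0.28 on array 1 and 0.59 on array 2. Of the 4, 3 were positive on both arrays and 1 was mixed. None was called by limma (0), and 2 of 4, both positive, had p under 0.05 before adjustment, as had 15% of all genes on this side. All 4 lay farther from 0 on array 2.

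Psmb9, the immunoproteasome counterpart of Psmb6, had 0.49 on array 1 and 1.27 on array 2, a mean of 0.88 ± 0.55 (SD, n = 2; limma adjusted p = 0.102). If the base is 2, this is a ratio of 1.84-fold. Psmb8, the counterpart of Psmb5, had -0.01 and 0.72, a mean of 0.35 ± 0.51 (limma adjusted p = 0.341). Its positive mean rests on array 2. Psmb10, the counterpart of Psmb7, had 0.22 and 0.36, a mean of 0.29 ± 0.10 (limma adjusted p = 0.275). Psme1, a subunit of the activator ring that interferon gamma induces, had 0.33 and 0.46, a mean of 0.39 ± 0.09 (limma adjusted p = 0.181). Psmb10 and Psme1 had the smaller gap between arrays and Psmb8 and Psmb9 the larger.

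Set against the constitutive subunit it replaces, each of the 3 catalytic immunosubunits had the higher log ratio on both arrays. Psmb9 exceeded Psmb6 by 0.60 on array 1 and 1.40 on array 2, a mean difference of 1.00 ± 0.57 (SD, n = 2). Psmb8 exceeded Psmb5 by 0.20 and 1.21, a mean difference of 0.70 ± 0.71. Psmb10 exceeded Psmb7 by 0.02 and 0.31, a mean difference of 0.17 ± 0.21. The difference was thus smallest for Psmb10, and with 2 arrays it was smaller than its SD for Psmb8 and Psmb10. No test was made of these differences.

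**Figure D3:**
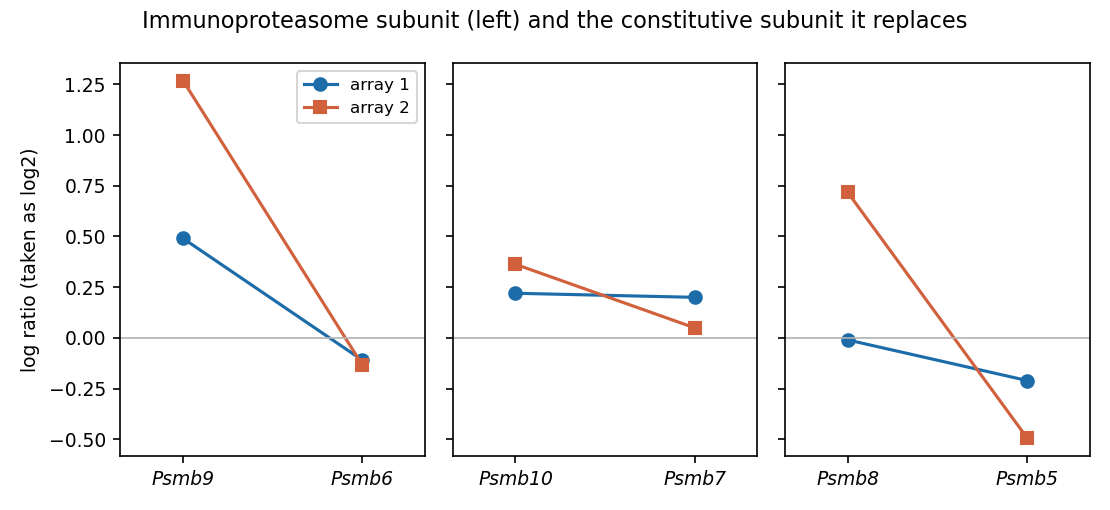
Log ratio (taken as log2, y axis) of each catalytic immunosubunit (left of each panel) and of the constitutive subunit it replaces (right), on array 1 (circles) and array 2 (squares), joined per array. All 6 lines fall from left to right, the line of Psmb10 and Psmb7 on array 1 by only 0.02.

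Genes of the same antigen presentation route were read beside them. The 10 measured MHC class I presentation genes had a median of 0.24, with 6 on the positive and 1 on the negative side of both arrays. Tap2, a chain of the peptide transporter, had 0.62 on array 1 and 1.15 on array 2 (mean 0.89 ± 0.38, SD, n = 2; limma adjusted p = 0.0795). Tap1, whose start adjoins that of Psmb9, had 0.01 and 0.54, and B2m, the light chain of MHC class I, had -0.08 and 0.50. Psmb8, Tap1 and B2m shared a value near 0 on array 1 and a positive one on array 2. Erap1, a peptide-trimming enzyme, had 0.27 and 0.85, and Tapbp, tapasin, had 0.53 and 0.26. The chaperone Canx, calnexin, was the 1 called gene of the list, and it was negative, at -1.02 and -1.25 (mean -1.13 ± 0.16; limma adjusted p = 0.0438; 0.777% of all genes were called on this side).

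Interferon-induced genes and leukocyte markers were read beside the immunoproteasome, and their part in its values was not tested. The 7 measured interferon response genes held 2 on each side of 0 on both arrays, with means from -0.54 to 1.88 and a median of 0.10, and limma called 1 (2.12% of all genes were called on the positive side). It was Cxcl9, an interferon gamma-induced chemokine, at 2.31 on array 1 and 1.44 on array 2 (mean 1.88 ± 0.61, SD, n = 2; limma adjusted p = 0.0423). Array 1 was the higher for Cxcl9 and array 2 for Psmb8 and Psmb9. Gbp2 was also positive on both arrays, at 0.58 and 0.29. The negative ones were Rsad2, at -0.50 and -0.55, and Irf7, at -0.19 and -0.46. Ifng, interferon gamma itself, had 0.83 and 0.42. Of 7 T and NK cell markers 3 were positive and 2 negative on both arrays, with medians of 0.61 on array 1 and -0.02 on array 2. The 3 positive were Cd2, at 0.82 and 1.16, Cd5, at 0.68 and 1.26, and Ifng. Gzmb, at -0.12 and -0.05, was among the 2 negative. Of 3 B cell markers 2 were positive and 1 negative, and of 5 macrophage markers 2 were positive and 3 negative. Among the macrophage markers limma called Cd14, a co-receptor for lipopolysaccharide, on the negative side, with -1.43 on array 1 and -0.96 on array 2 (mean -1.20 ± 0.33, SD, n = 2; limma adjusted p = 0.0475). On this side 0.777% of all genes were called. The 2 positive macrophage markers, not called, were Fcgr1, at 0.75 and 1.485, and Cd163, at 0.39 and 0.93. Of 5 hepatocyte markers 2 were positive and 3 negative on both arrays, with means from -0.95 to 0.80. A log ratio holds no level, so whether liver or tumour markers were present in either tissue could not be read.

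Psmd10, also called gankyrin, had the highest mean of the 73 members. It is an assembly chaperone of the regulatory particle and an oncoprotein that binds Rb and Mdm2. It had 0.82 on array 1 and 0.97 on array 2, a mean of 0.90 ± 0.11 (SD, n = 2), or 1.86-fold if the base is 2. Both arrays were thus well on the positive side, with a 95% interval of 0.50 to 1.29. The limma adjusted p of 0.0554 missed the threshold, and the gene was called in 1 of 9 alternatives.

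The other assembly chaperones had means nearer 0. Psmg1, Psmg2 and Psmg3, which help to build the alpha ring, had means of 0.13, 0.03 and 0.13 and were positive on both arrays only for Psmg1. Psmd5 had -0.14 and -0.43 and Psmd9 had 0.20 and -0.01. These partners of Psmd10 in building the ATPase ring did not share its side on both arrays. Psme4, an alternative cap, and Psmf1, an inhibitor, had means of -0.03 ± 0.03 and 0.01 ± 0.07 (SD, n = 2), with all 4 array values close to 0.

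Proteasome partners outside the Psm names were taken from a list of 17 genes, 15 of them measured. None was called by limma (0), and 4 had p under 0.05 before adjustment, against 27.5% of all genes. On both arrays 6 lay on the positive and 6 on the negative side. The deubiquitinases Uchl5 and Usp14, which dock on the regulatory particle, had 0.53 and 0.48, and 0.44 and 0.43, on arrays 1 and 2. Their docking subunits lay on the other side: Adrm1, which holds Uchl5, had -0.22 and -0.61, and Psmd2 was negative as given above. Pomp, a chaperone of core assembly, had 0.26 and 0.22, and Sem1, a small lid subunit, had -0.15 and 0.13. Nfe2l1, the transcription factor that induces proteasome genes when the proteasome is inhibited, had -0.31 and -0.60 (mean -0.45 ± 0.20, SD, n = 2; limma adjusted p = 0.162). Its relative Nfe2l2, the regulator of the antioxidant response, had 0.56 and 0.31.

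The 28 E2 enzymes had a median of -0.16, with -0.10 on array 1 and -0.14 on array 2. Both arrays were negative for 16 of them (57.1%) and positive for 7 (25%), beside 38.2% negative and 33.9% positive over all genes. None was called by limma (0 of 28). Before adjustment 7 of 28 had p under 0.05, 3 positive and 4 negative, a share of 25% against 27.5% over all genes. Across these enzymes Pearson's r between the arrays was 0.80 and Spearman's rho 0.74 (n = 28 genes on the same 2 arrays).

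Ube2z, which takes ubiquitin or the modifier Ubd (FAT10) from the E1 enzyme Uba6, had the lowest mean of all members. It had -0.60 on array 1 and -0.96 on array 2, a mean of -0.78 ± 0.26 (SD, n = 2; limma adjusted p = 0.0801), or 1.72-fold if the base is 2. Ubd itself lay on the opposite side, at 0.89 and 0.84 (mean 0.87 ± 0.03; limma adjusted p = 0.0563). The log ratio of Ube2z minus that of Ubd was -1.49 on array 1 and -1.81 on array 2, with no test of the difference.

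Ube2j1, Ube2j2, Ube2g2 and Ube2g1 are E2 enzymes of degradation at the endoplasmic reticulum or near relatives of such. Of these, 3 of 4 were negative on both arrays, against 57.1% of all E2 enzymes and 38.2% of all genes. Ube2j1, anchored in its membrane, had -0.55 on array 1 and -0.60 on array 2 (mean -0.58 ± 0.04, SD, n = 2; limma adjusted p = 0.102). Ube2g2, a soluble enzyme of this route, had -0.43 and -0.58 (mean -0.51 ± 0.11; limma adjusted p = 0.127). Ube2j2, the other membrane-anchored enzyme, was mixed, at 0.14 and -0.53, and Ube2g1 had -0.25 and -0.07. Vcp, the ATPase p97 that pulls such substrates from the membrane, had -0.32 and -0.39, while its cofactor Ufd1 had 0.52 and 0.70. None of 12 measured genes of p97 and its cofactors was called by limma (0). Before adjustment 3 had p under 0.05, against 27.5% of all genes. On both arrays 6 were positive and 4 negative.

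Ube2a and Ube2b, paralogs that serve DNA damage tolerance with the ligase Rad18, did not share a value. Ube2a had 0.60 on array 1 and 0.72 on array 2 (mean 0.66 ± 0.09, SD, n = 2; limma adjusted p = 0.0872), or 1.58-fold if the base is 2. Ube2b had -0.07 and -0.18 (mean -0.12 ± 0.07). The difference was 0.67 and 0.90 on arrays 1 and 2, with no test. Rad18 had 0.47 and 0.53. Close paralogs such as these can share probe signal, and probe sequences were not analysed here.

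The pair Ube2n and Ube2v1, which together build non-degradative ubiquitin chains, was negative on array 2. Ube2v1, the inactive partner, had -0.35 on array 1 and -0.76 on array 2 (mean -0.55 ± 0.29, SD, n = 2; limma adjusted p = 0.134). Ube2n, the active one, had 0.03 and -0.54, so that its mean of -0.25 ± 0.40 rests on array 2.

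Ube2c and Ube2s start and extend ubiquitin chains for the anaphase-promoting complex in mitosis. Ube2c had -0.09 on array 1 and -0.57 on array 2 (mean -0.33 ± 0.34, SD, n = 2), and Ube2s had -0.10 and -0.23 (mean -0.17 ± 0.09). Both were negative on both arrays with limma adjusted p of 0.296 and 0.508. None of 16 measured genes of the complex was called by limma (0). Before adjustment 2 had p under 0.05, both positive, against 27.5% of all genes on either side. Their means had a median of -0.09, whereas the medians of array 1 and array 2 were 0.02 and 0.03. On both arrays 7 lay on the positive and 6 on the negative side. Anapc7, a subunit of the complex, had 0.40 and 0.63, and Anapc10, which helps to bind substrates, had 0.29 and 0.53. Its coactivator Cdc20 was positive at 0.31 and 0.15, and Fzr1 negative at -0.22 and -0.46. The 9 measured proliferation genes had a median of -0.19, and none was called by limma (0). Before adjustment 1 had p under 0.05, against the same 27.5%.

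Enzymes of the Ube2d and Ube2e families, which serve many ligases, fell on different sides. Ube2e2 had 0.56 on array 1 and 0.45 on array 2 (mean 0.51 ± 0.08, SD, n = 2; limma adjusted p = 0.125), and Ube2e1 had 0.32 and 0.26. Ube2e3 was mixed, at -0.07 and 0.10. Ube2d1 had -0.22 and -0.50, and Ube2d2b had -0.24 and -0.32, so both Ube2d genes measured were negative on both arrays.

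Among enzymes with more particular roles, Ube2o, a large enzyme that is both E2 and E3, had 0.50 on array 1 and 0.47 on array 2 (mean 0.49 ± 0.02, SD, n = 2; limma adjusted p = 0.129). Ube2k had 0.26 and 0.38, and Ube2w, which modifies the amino terminus of proteins, had 0.28 and 0.13. These were positive on both arrays. Ube2l3, which charges HECT and RING-between-RING ligases, had -0.29 and -0.26. Ube2l6, the interferon-induced enzyme that conjugates Isg15, had -0.23 and -0.07 (mean -0.15 ± 0.11; limma adjusted p = 0.551). The mean of Ube2l6 therefore lay on the side opposite to the means of the 4 immunoproteasome genes. Isg15 and the 4 ubiquitin genes of the list are not analysed here.

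Among the remaining enzymes Ube2ql1, at -0.25 and -0.42 (mean -0.34 ± 0.12, SD, n = 2), had the lowest mean. Ube2h had -0.05 and 0.47, Ube2t, which serves the Fanconi anaemia pathway, -0.14 and 0.01, and Ube2r2, a partner of cullin ligases, 0.04 and 0.03. Ube2q1 and Ube2q2 had means of -0.06 and -0.18. Ube2f, which conjugates Nedd8, was the 1 member with more than 1 probe, and its probes disagreed, with means of -0.38 and 0.13.

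**Figure D4:**
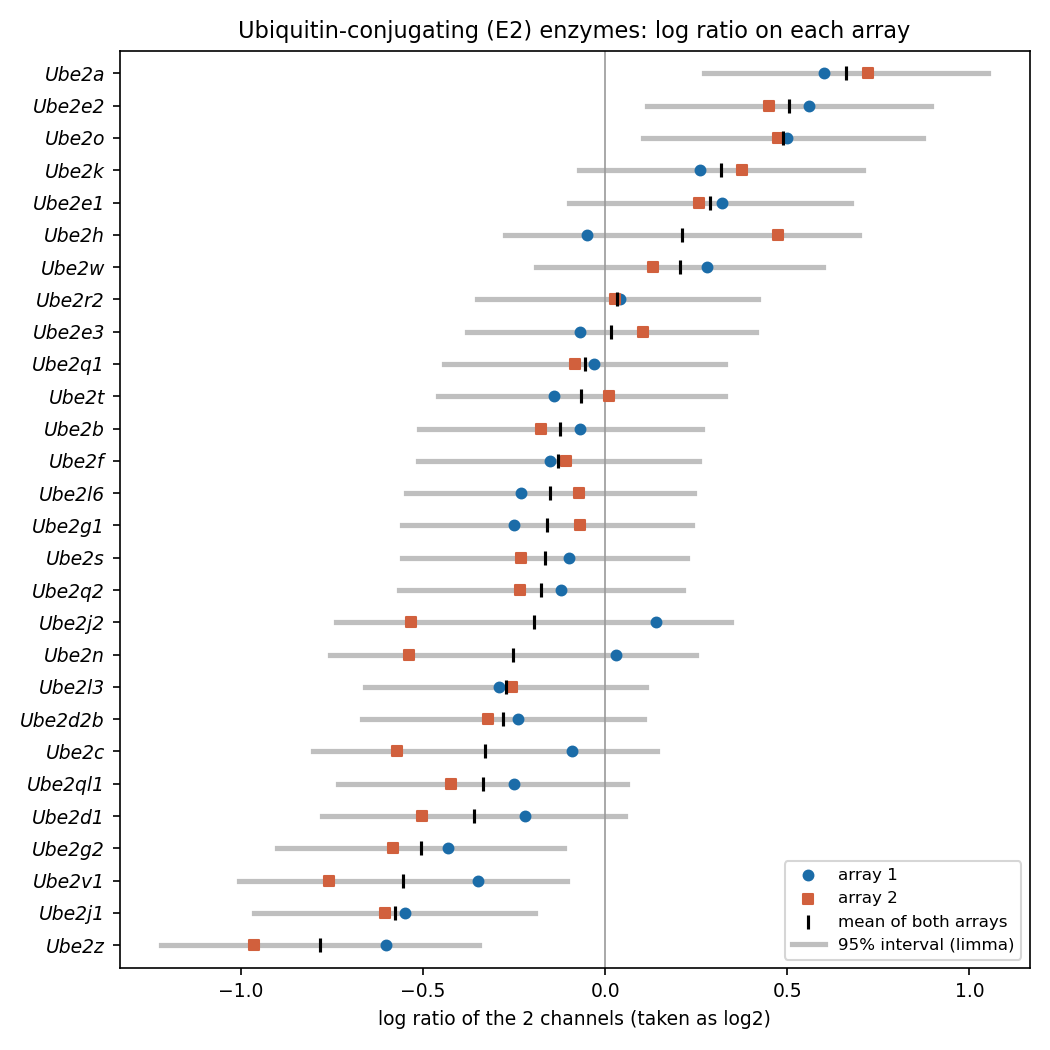
Log ratio (taken as log2, x axis) of the 28 E2 enzymes on array 1 (circles) and array 2 (squares), with the mean (black tick) and the 95% limma interval (grey bar), ordered by mean. Ube2a is at the top with 0.60 and 0.72, Ube2z at the bottom with -0.60 and -0.96, and 16 enzymes lie left of 0 on both arrays.

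Of the 3 genes that share only the name, Psme3ip1, a partner of the activator Psme3, had -0.34 on array 1 and -0.56 on array 2 (mean -0.45 ± 0.15, SD, n = 2; limma adjusted p = 0.156). Psmc3ip, a meiotic recombination factor, had 0.36 and 0.03, and Ube2cbp, which binds Ube2c, was mixed at 0.19 and -0.54.

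The E1 enzymes upstream showed no common side. None of 7 measured was called by limma (0). Before adjustment 2 had p under 0.05, against 27.5% of all genes. On both arrays 2 were positive and 4 negative. Uba1, the main E1 of ubiquitin, had -0.40 on array 1 and -0.68 on array 2 (mean -0.54 ± 0.19, SD, n = 2; limma adjusted p = 0.125). Uba3, the catalytic part of the Nedd8 E1, had 0.38 and 0.40, and Sae1, a part of the SUMO E1, had -0.29 and -0.48.

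Downstream, none of 30 cullin-RING ligase genes, 32 HECT and RING ligases and 41 deubiquitinases was called by limma (0 in each list). Before adjustment 8 in each list had p under 0.05, against 27.5% of all genes. The cullin-RING genes had a median of -0.15, with 16 on the negative and 8 on the positive side of both arrays. They included Ddb1, an adaptor of damage-related ligases, at -0.51 on array 1 and -1.15 on array 2, against Cul3, a scaffold, at 0.52 and 0.65. Among the ligases Nedd4l had 0.96 and 0.70, and Ubr1, which reads destabilising amino termini, had 0.60 and 1.03. Among the deubiquitinases Usp8 had 0.74 and 1.01, Usp1 0.78 and 0.67 and Josd2 -0.62 and -0.65.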

How the data were processed

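RNA of liver metastases and primary tumours was amplified as amino-allyl aRNA and hybridised to 2 two-colour arrays, per the labels' protocols. The deposited table gives 1 log ratio per probe and array, taken as log2. How the authors corrected background, filtered spots and normalized, and the log base and numerator, is not given in the sources used here. Without intensities, dim probes could not be filtered, and precision is limited by the small number of arrays. Both arrays gave a value for 18837 of 23473 probes. GEO's annotation gave 16631 probes 1 symbol, 0 several and 6842 none. By RefSeq's GRCm38.p6 annotation, the symbol was current for 12622 of these probes, updated by a unique synonym for 3947 and kept for 62. Probes were averaged per gene, and 168 of 13506 genes had more than 1.

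Gene log ratios were compared with 0 by limma 3.58.1 under R 4.3.3 (lmFit, eBayes, 1 residual and 4.06 prior degrees of freedom), with Benjamini-Hochberg adjustment over all genes and a threshold of 0.05. Simulated data held 13506 genes, of which a small part was changed. Changes of 1 log2 unit were recovered in 18% of cases and changes of 2 units in 96%, with 17 false calls among 174. Recovery depends on how many genes change, so these shares need not hold for the data, where 391 genes were called. Classes were described by medians and counts, without a test. All members may be named. Of each other list, those named are the up to 4 genes farthest from 0 on their weaker array, with the same sign on both, and a few fixed genes. The class of Ube2cbp was set apart from the E2 enzymes after its annotation was seen. The members and lists were chosen with earlier results of these data known. Alternatives were 3 normalizations, 2 moderation settings, a minimum fold of 1.2, single probes, genes with 1 probe, genes with a value on at least 1 array, and leaving out each array. Figures were drawn with matplotlib 3.10.9.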

Additional observations from a re-analysis of the deposited data

How the results depend on the processing

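Each value is already a ratio within 1 array that pairs a metastasis with a tumour. The test against 0 is therefore paired by array, and no unpaired alternative could be run. Of 73 members, limma called 0 in each alternative except when genes with a value on at least 1 array entered the fit, which called 1, Psmd10 (adjusted p = 0.0432); over the 9 alternatives its adjusted p ran from 0.0432 to 0.463, the highest without moderation. The count over all genes was 391 as reported, 55 when the arrays were scaled to one spread, 4 with quantile normalization, 0 without moderation (1450 at an unadjusted p under 0.05), 108 with a minimum fold, 238 on single probes, 255 on genes with 1 probe and 1041 with a value on at least 1 array. The cause was not tested. With 0 genes called without moderation, the calls of Canx, Cxcl9 and Cd14 given above did not hold there. No member changed the sign of its mean after centring, scaling or quantile normalization. The other alternatives that leave out no array do not alter the mean of any member they include. They could therefore change no sign and do not test it. With 1 array left out, the sign depended on the array for the 16 members whose arrays differed in sign. The median of the regulatory particle, -0.048, was -0.024 after centring, -0.0366 after scaling and -0.0372 after quantile normalization, and with 1 array left out 0.050 to 0.0522, on the other side of 0. With 1 array left out, the median was -0.26 to -0.11 for the core, 0.28 to 0.59 for the immunoproteasome and -0.14 to -0.10 for the E2 enzymes, and 1 member was at least 1 log2 unit from 0 on either array alone (Psma8 on array 1, Psmb9 on array 2). With Ube2cbp counted, which was chosen after seeing the data, the E2 median was -0.16. Array 1 decides the mean of Psma8, and array 2 those of Psmb8 and Ube2n. The 2 arrays had the same dye orientation. In the simulated data of 2 arrays, changes of 1 log2 unit mostly went undetected.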
